A study of Caenorhabditis remanei with 48 samples.

Results

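First-stage (L1) larvae of the nematode Caenorhabditis remanei from a control-selected population were compared with larvae of its ancestor after incubation in the heat. The comparison rests on 12 of the 48 libraries of the series, chosen by their labels alone: 6 control-selected libraries (control-selected, derived from strain PX443) and 6 ancestor libraries (strain PX443). In both groups the parents lived at 20 °C, and the bleached embryos were kept for 20 h at 30 °C in buffer without food, so that larvae hatched and stayed unfed. About 100000 filtered larvae were pooled per library, and polyadenylated RNA was sequenced. The series also holds a heat-selected population, larvae kept at 20 °C and offspring of parents kept at 30 °C. Each selection regime is represented by 1 population, and whether replicates came from separate cultures is not labelled. P-values therefore measure only the spread between libraries. For gene tests this spread was estimated over all 48 libraries unless a fit is said to use fewer. The labels give a batch letter to each library: control-selected replicates 1 and 2 are in batch C and replicates 3 to 6 in batch D, while ancestor replicates 1, 2, 5 and 6 are in batch A and replicates 3 and 4 in batch B. No batch holds both populations, so batch and population cannot be told apart.

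Caenorhabditis remanei reproduces by outcrossing between females and males, and its populations carry much standing genetic variation on which selection can act. A control line of an evolution experiment is kept without the selective treatment, and it can still change through adaptation to laboratory culture, drift and bottlenecks. Nematode larvae that hatch without food arrest their development in the L1 stage, and heat in animals commonly raises transcripts of chaperones and other protective proteins. The comparison asks which transcripts of heat-exposed larvae differ between a laboratory-kept descendant population and its ancestor. The gene models carry no names in the files or in the RefSeq table for the PX506 assembly, which pairs them with locus tags only, so genes are given by identifier and no function or tissue is assigned. The labelled stage could therefore not be checked against marker genes, and in pooled larvae a change in the share of a cell type cannot be told apart from a change of RNA per cell.

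The control-selected libraries were shallower than the ancestor libraries. Counts in genes averaged 4103106 ± 963220 in control-selected larvae, between 2476342 and 5169172, and 6644440 ± 1466845 in ancestor larvae, between 5144716 and 8466404 (SD, n = 6 each; exact two-sided permutation p = 0.00649, adjusted over 7 library measures 0.0379). The share of reads on overlapping gene models was also lower, 3.52 ± 0.64% in control-selected and 4.46 ± 0.397% in ancestor libraries (exact permutation p = 0.0108, adjusted 0.0379). Of the other 5 measures, none passed after adjustment; reads outside gene models made up 18.9 ± 3.02% in control-selected and 14.1 ± 4.49% in ancestor libraries (exact permutation p = 0.0736, adjusted 0.129). Replicates fell into consecutive pairs, though control-selected replicates 1 and 2 only weakly. Ancestor replicates 1 and 2 correlated at r = 0.99 with each other and at 0.87 to 0.93 with the other 4 ancestor libraries, across genes on a log2 scale. Control-selected replicates 1 and 2 correlated at 0.956, hardly above replicates 2 and 5 at 0.955. Control-selected replicates 3 and 4 correlated at 0.981 and replicates 5 and 6 at 0.978. The part of depth in the differences below was not tested.

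Of 13460 genes with enough counts, 182 differed between control-selected and ancestor larvae at 30 °C (1.35% of those tested; edgeR quasi-likelihood test, Benjamini-Hochberg adjusted p under 0.05, here "called"). A set of 123 genes was higher in control-selected larvae (0.914% of genes tested) and 59 were lower (0.438%). Higher genes had a median log2 fold change of 2.06, and 64 of them differed by at least 2 on the log2 scale. Lower genes had a median of −1.34, and 19 of them differed by at least 2. The median over all genes tested was −0.05. An unadjusted p under 0.05 was reached by 1921 genes.

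The count of called genes depended on which replicates entered. Without control-selected replicates 5 and 6 it was 24, of which 22 were among the 182, and without control-selected replicates 3 and 4 it was 513. Without ancestor replicates 3 and 4 it was 549, and without ancestor replicates 5 and 6 it was 349. When consecutive replicates were summed to 3 values per population, no gene passed adjustment by edgeR, while 706 had an unadjusted p under 0.05. With the 12 libraries fitted alone, so that the spread came from them only, 1 gene was called. DESeq2 called 286 genes and limma-voom 64.

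**Figure D1:**
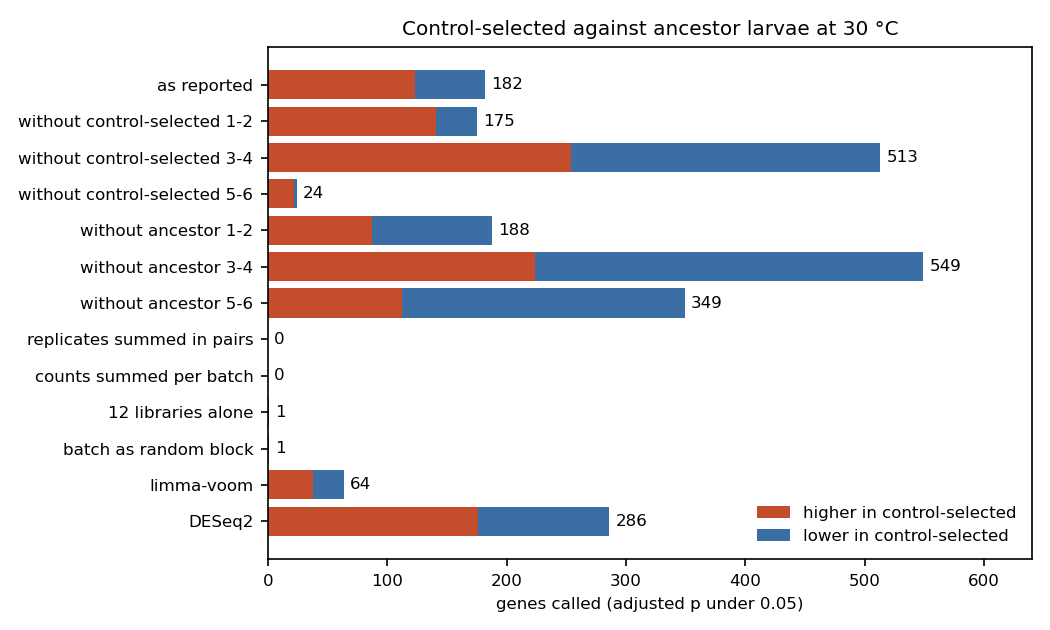
Number of genes called between control-selected and ancestor larvae at 30 °C (horizontal axis, adjusted p under 0.05) under several choices of libraries and test; bars are split into genes higher and lower in control-selected larvae. The bars run from 0 genes with replicates summed in pairs to 549 without ancestor replicates 3 and 4, beside 182 as reported.

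Few called genes separated the populations library by library. For 47 of the 182 the 6 control-selected libraries did not overlap the 6 ancestor libraries: 28 were higher and 19 were lower. Over all genes tested, 107 did not overlap (0.795%), 49 of them higher (0.364%) and 58 lower (0.431%). Each control-selected pair of replicates (1-2, 3-4, 5-6) was also set against each ancestor pair. All 9 combinations ran in the direction of the call for 97 of the 182, 59 of the 123 higher genes and 38 of the 59 lower genes, beside 679 of all genes tested (5.04%). All 3 same-numbered pairs did so for 140 of the 182, beside 3717 of all genes tested (27.6%). The same libraries chose the 182, so these counts describe them and test nothing.

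The 3 control-selected pairs contributed unequally to the higher genes. Among the 123 higher genes, the highest control-selected pair was 5-6 for 76 genes (61.8%), 1-2 for 39 (31.7%) and 3-4 for 8 (6.50%). Among all genes tested with a positive fold change these shares were 27.8% for pair 5-6, 45.2% for pair 1-2 and 27.0% for pair 3-4. Against the 3 ancestor pairs 1-2, 3-4 and 5-6, the median log2 difference of control-selected pair 5-6 was 2.49, 2.21 and 2.27. For control-selected pair 1-2 it was 0.83, 0.49 and 0.61, and for pair 3-4 it was 1.24, 0.75 and 1.04. The lower genes were more even, with medians between −1.44 and −0.52 over the 9 combinations.

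**Figure D2:**
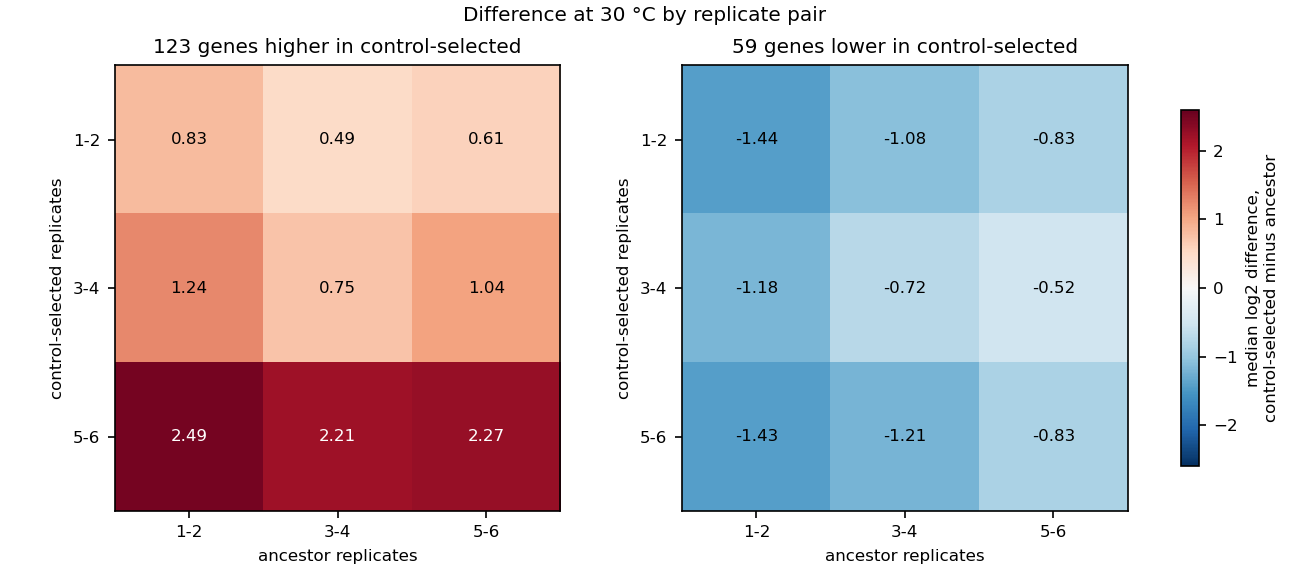
Median log2 difference, control-selected minus ancestor, for each combination of a control-selected pair of replicates (vertical) with an ancestor pair (horizontal), over the 123 higher genes (left) and the 59 lower genes (right). The row of control-selected replicates 5-6 holds the 3 largest medians of the left panel, 2.21 to 2.49, while the right panel runs from −1.44 to −0.52.

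CRE17828, on linkage group 9, was the named gene whose difference between these 12 libraries was called in the most alternative fits. It did not pass at 20 °C or with heated parents, as given below. Its level was 32.1 CPM at the lowest, 39.1 at the median and 46.2 at the highest in control-selected larvae, against 7.82, 11 and 14.2 CPM in ancestor larvae, where CPM stands for counts per 1e6 of the TMM-scaled library size. Every control-selected library lay above every ancestor library. The log2 fold change was 1.80 ± 0.23 (standard error of the fit; edgeR adjusted p = 7.16e-06). It was the gene called with the 12 libraries fitted alone (log2 fold change 1.83, edgeR adjusted p = 0.00328) and with batch as a random block in limma-voom (1.84, adjusted p = 0.00818). It was called in 32 of 34 alternatives, and the exceptions were sums over replicate pairs (adjusted p = 0.543) and over batches (1.0).

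CRE17924 is close to it on linkage group 9 and was likewise even among control-selected libraries. Its 6 control-selected libraries spanned 11.7 to 17.8 CPM with a median of 14.5, against 1.59 to 7.06 CPM with a median of 3.29 in the ancestor. The groups did not overlap, and ancestor replicates 3 and 4 were the nearest at 7.06 and 5.64 CPM. The log2 fold change was 1.87 ± 0.31 (edgeR adjusted p = 0.000997). CRE13568, on linkage group 2, was similar in size. It ran from 5.61 to 10.3 CPM in control-selected larvae (median 8.29), against 0.308 to 3.78 CPM in ancestor larvae (median 2.49), without overlap and with a log2 fold change of 1.94 ± 0.34 (edgeR adjusted p = 0.00132). Of the 31 genes named here by rule, CRE17828, CRE17924 and CRE13568 were the 3 called in all 6 fits that left out 1 pair of replicates.

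Several other genes without overlap were highest in control-selected replicates 1 and 2. CRE14226 had 121 and 71.4 CPM in these libraries and 7.85 to 9.55 CPM in the other 4 control-selected libraries, against 0.905 to 7.23 CPM (median 4.41) in ancestor larvae. The fitted log2 fold change was 3.05 ± 0.53 (edgeR adjusted p = 0.00105), and 0.96 without control-selected replicates 1 and 2 (adjusted p = 0.231). CRE07205 showed the same shape, with 116 and 59.4 CPM in replicates 1 and 2 and 13.3 to 23.2 CPM in replicates 3 to 6 of control-selected larvae, against 8.64 to 12.6 CPM in ancestor larvae. For this gene the log2 fold change was 1.92 ± 0.46 (edgeR adjusted p = 0.019), and 0.71 without that pair (adjusted p = 0.42). The size of both differences rested on the 2 libraries of batch C.

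CRE02474 and CRE21731 were less uneven among control-selected libraries, but not between batches. CRE02474 ranged from 14.8 to 57.3 CPM in control-selected larvae (median 20.6) and from 2.26 to 13.0 CPM in ancestor larvae (median 2.75), where replicates 3 and 4 were highest. Its log2 fold change was 2.22 ± 0.47 (edgeR adjusted p = 0.00742). CRE21731, on linkage group 1, ranged from 10.8 to 31.4 CPM in control-selected larvae (median 13.1) and from 1.33 to 7.88 CPM in ancestor larvae (median 5.67). The groups were apart, and control-selected replicate 2 stood above the other 5. The log2 fold change was 1.75 ± 0.36 (edgeR adjusted p = 0.00667). Both lost their call without control-selected replicates 1 and 2 (adjusted p = 0.0769 for CRE02474 and 0.0584 for CRE21731) and without ancestor replicates 1 and 2 (0.0672 and 0.0504). Between batches C and A their log2 fold changes were 4.02 and 2.72. Between batches D and B they were 0.61 and 0.80, and neither gene was called (edgeR adjusted p = 0.477 and 0.359).

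CRE16493, CRE18211 and CRE27097 did not overlap either and were highest in control-selected replicates 5 and 6. CRE16493, on linkage group 12, ran from 5.74 to 25 CPM in control-selected larvae (median 9.70) and from 1.36 to 5.25 CPM in ancestor larvae (median 3.38), a log2 fold change of 1.90 ± 0.32 (edgeR adjusted p = 0.000997). CRE18211 ran from 11.8 to 46.1 CPM in control-selected larvae (median 15.6) and from 2.74 to 8.54 CPM in ancestor larvae (median 6.32), a log2 fold change of 1.89 ± 0.39 (adjusted p = 0.00667). Without control-selected replicates 5 and 6 neither was called (adjusted p = 0.0641 for CRE16493 and 0.227 for CRE18211). CRE27097 had 15.5 and 21.3 CPM in those replicates and 1.85 to 4.41 CPM in the other control-selected libraries, against 0.328 to 1.81 CPM in ancestor larvae. The difference came to 2.77 ± 0.53 on the log2 scale (edgeR adjusted p = 0.00297), and 1.35 without replicates 5 and 6 (adjusted p = 0.348).

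**Figure D3:**
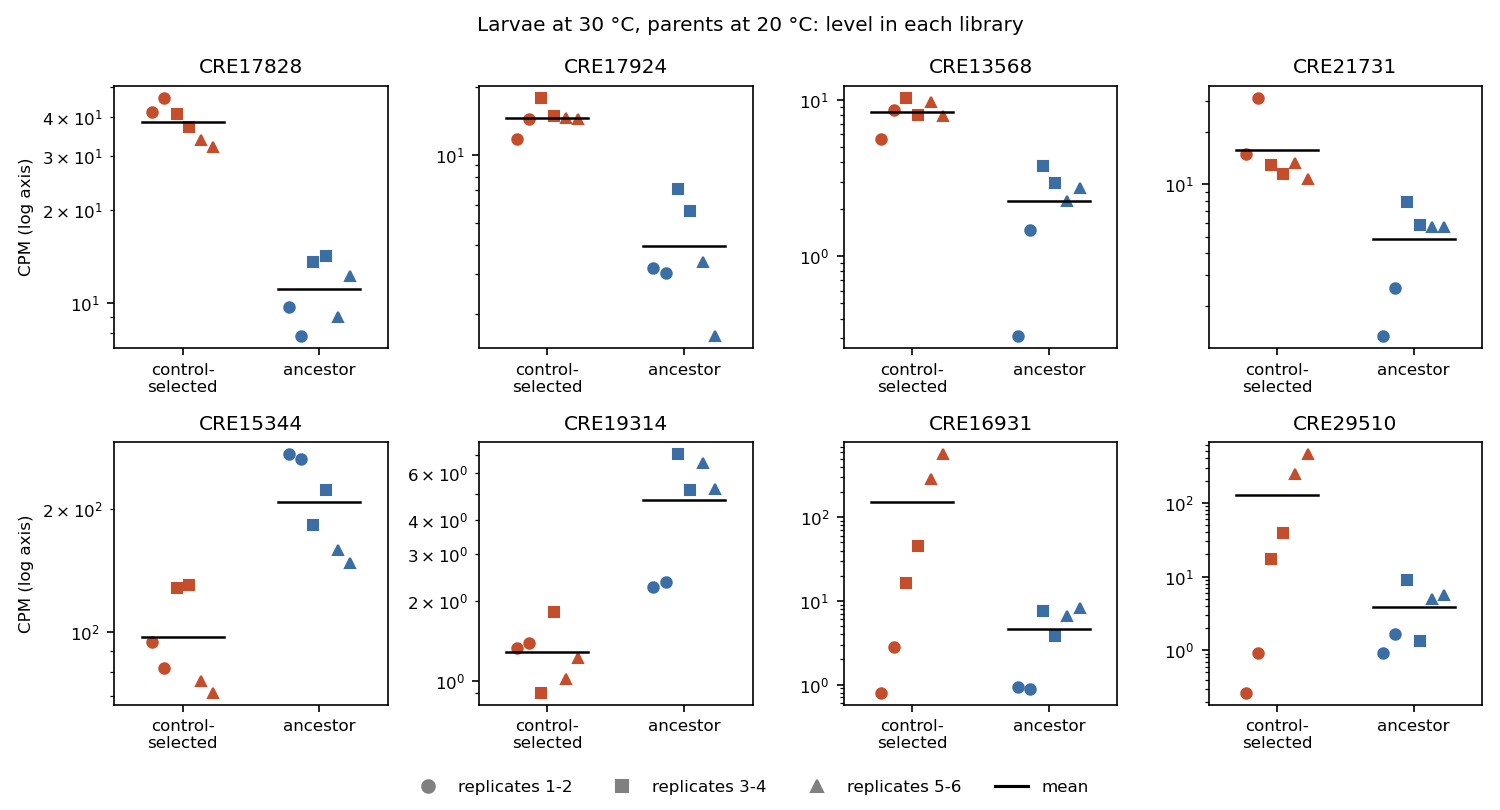
Level of 8 named genes in each of the 12 libraries at 30 °C (CPM on a log axis; control-selected left, ancestor right; markers give the replicate pair and lines the group mean). CRE17828, CRE17924, CRE13568, CRE21731, CRE15344 and CRE19314 do not overlap between the populations, while CRE16931 and CRE29510 are high in control-selected replicates 5 and 6.

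Among the genes lower in control-selected larvae, CRE15344 and CRE21243 were abundant. CRE15344, on linkage group 1, had 71.3 to 130 CPM in control-selected larvae (median 88.4) and 148 to 271 CPM in ancestor larvae (median 202). All 6 control-selected libraries were below all 6 ancestor libraries, and the log2 fold change was −1.10 ± 0.24 (edgeR adjusted p = 0.0104). It lost its call in 3 of the 6 fits that left out a pair of replicates. CRE21243, on linkage group 10, had 59.8 to 81.7 CPM in control-selected larvae (median 78.0) and 99.6 to 160 CPM in ancestor larvae (median 132). It also separated the groups, with a log2 fold change of −0.82 ± 0.22, close to the limit of the call (edgeR adjusted p = 0.0489). It kept its call in 1 of those 6 fits.

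CRE19314, on linkage group 7, and the gene models CRE_PX356_5841 and CRE_PX356_6120 were expressed at low levels and were lower still in control-selected larvae. CRE19314 had 0.906 to 1.82 CPM in control-selected larvae (median 1.28) and 2.26 to 7.06 CPM in ancestor larvae (median 5.21), a log2 fold change of −1.85 ± 0.35 (edgeR adjusted p = 0.00297). CRE_PX356_5841 had 0 to 1.82 CPM (median 0.877) in control-selected larvae and 2.25 to 8.12 CPM (median 4.65) in ancestor larvae, a log2 fold change of −2.54 ± 0.50 (adjusted p = 0.00415). The control-selected libraries of both genes lay below all ancestor libraries. CRE_PX356_6120 had no count in control-selected replicates 5 and 6 and at most 2.72 CPM in the other 4, against 3.17 to 12.1 CPM (median 5.16) in ancestor larvae. The populations differed by −2.93 ± 0.59 on the log2 scale (edgeR adjusted p = 0.0063). A count of 0 in these libraries allows up to 0.763 and 0.734 CPM (3 counts, counting error only). Each of the 3 genes lost its call in 1 of the 6 fits without a pair, the fit without control-selected replicates 5 and 6 (adjusted p = 0.0535, 0.0544 and 0.107 for CRE19314, CRE_PX356_5841 and CRE_PX356_6120). The log2 fold changes in that fit were −1.76, −2.59 and −2.33, close to those with all libraries for the first and second gene.

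CRE00476 and CRE04506 separated the groups mainly through ancestor replicates 1 and 2. CRE00476, on linkage group 1, had 2.07 to 4.00 CPM in control-selected larvae, against 16.5 and 16.8 CPM in ancestor replicates 1 and 2 and 4.09 to 7.01 CPM in the other ancestor libraries. On the log2 scale the difference was −1.60 ± 0.36 (edgeR adjusted p = 0.0119), and −0.72 without that ancestor pair (adjusted p = 0.329). CRE04506 had 15.7 to 27.5 CPM in control-selected larvae, against 102 and 107 CPM in ancestor replicates 1 and 2 and 27.5 to 33.5 CPM in the others, so that the groups nearly touched. The log2 fold change was −1.29 ± 0.33 (edgeR adjusted p = 0.0322), and −0.43 without that pair (adjusted p = 0.509). Over all 59 lower genes, ancestor pair 1-2 stood at least 1 on the log2 scale above both other ancestor pairs for 14 genes (23.7%), near the share of all genes with a negative fold change (1512 of 7480, 20.2%). Ancestor pair 3-4 stood out for 8 (13.6%), beside 410 of 7480 (5.48%).

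CRE01305 and CRE04701 overlapped between the groups and were called through ancestor replicates 3 and 4, the libraries of batch B. CRE04701 had 48.6 and 64.1 CPM in these libraries and 2.35 to 6.37 CPM in the other ancestor libraries, against 1.07 to 9.06 CPM in control-selected larvae. Its log2 fold change was −2.27 ± 0.62 (edgeR adjusted p = 0.0499) and turned to 0.24 without that pair (adjusted p = 0.833). CRE01305, on linkage group 3, had 17.1 and 24.6 CPM in them and 0.682 to 3.84 CPM in the other ancestor libraries, against 0.231 to 2.59 CPM in control-selected larvae. The log2 fold change was −2.89 ± 0.77 (edgeR adjusted p = 0.0431), and −0.57 without that pair (adjusted p = 0.712).

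Several genes with large fold changes overlapped between the groups and were highest in control-selected replicates 5 and 6. CRE16931, on linkage group 4, had 0.801, 2.77, 16.3, 45.6, 288 and 569 CPM in control-selected replicates 1 to 6, against 0.88 to 8.19 CPM (median 5.20) in ancestor larvae. Control-selected replicates 1 and 2 thus lay within the ancestor range or below it, and replicates 5 and 6 lay far above. The log2 fold change was 5.10 ± 0.87 (edgeR adjusted p = 0.00105), and 1.86 without replicates 5 and 6 (adjusted p = 0.335). CRE29510, on scaffold 58, had 247 and 456 CPM in replicates 5 and 6, and 0.267 to 38.9 CPM in the other control-selected libraries, against 0.923 to 8.87 CPM in ancestor larvae. The difference was 5.05 ± 0.96 on the log2 scale (edgeR adjusted p = 0.00297), and 1.90 without that pair (adjusted p = 0.448).

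CRE26392, CRE26693 and CRE17369 shared this shape. In control-selected replicates 5 and 6 their levels were 165 and 281 CPM for CRE26392, 154 and 289 CPM for CRE26693 and 80.5 and 149 CPM for CRE17369. The highest ancestor library held 6.56 CPM of CRE26392, 9.36 CPM of CRE26693 and 3.87 CPM of CRE17369. Log2 fold changes were 4.52 ± 0.85, 4.31 ± 0.89 and 4.29 ± 0.75 for these genes (edgeR adjusted p = 0.00297, 0.0066 and 0.00132). Without replicates 5 and 6 they were 1.40, 1.42 and 1.31, and none of the 3 was called (adjusted p = 0.532, 0.601 and 0.485). Between batches C and A alone, the difference of CRE16931, CRE29510, CRE26392, CRE26693 and CRE17369 had the opposite sign, between −2.31 and −0.96.

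In all, control-selected pair 5-6 stood at least 1 on the log2 scale above both other control-selected pairs for 62 of the 123 higher genes. The same held for 194 of the 5980 genes tested with a positive fold change (3.24%). Among the 62, 9 ran in the direction of the call in all 9 pair combinations. Control-selected pair 1-2 stood out in this way for 13 of the 123 higher genes, a share (10.6%) near that of all genes with a positive fold change (654 of 5980, 10.9%). The labels put replicates 3 and 4 in the same batch D as replicates 5 and 6, and no label separates the pairs within it.

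**Figure D4:**
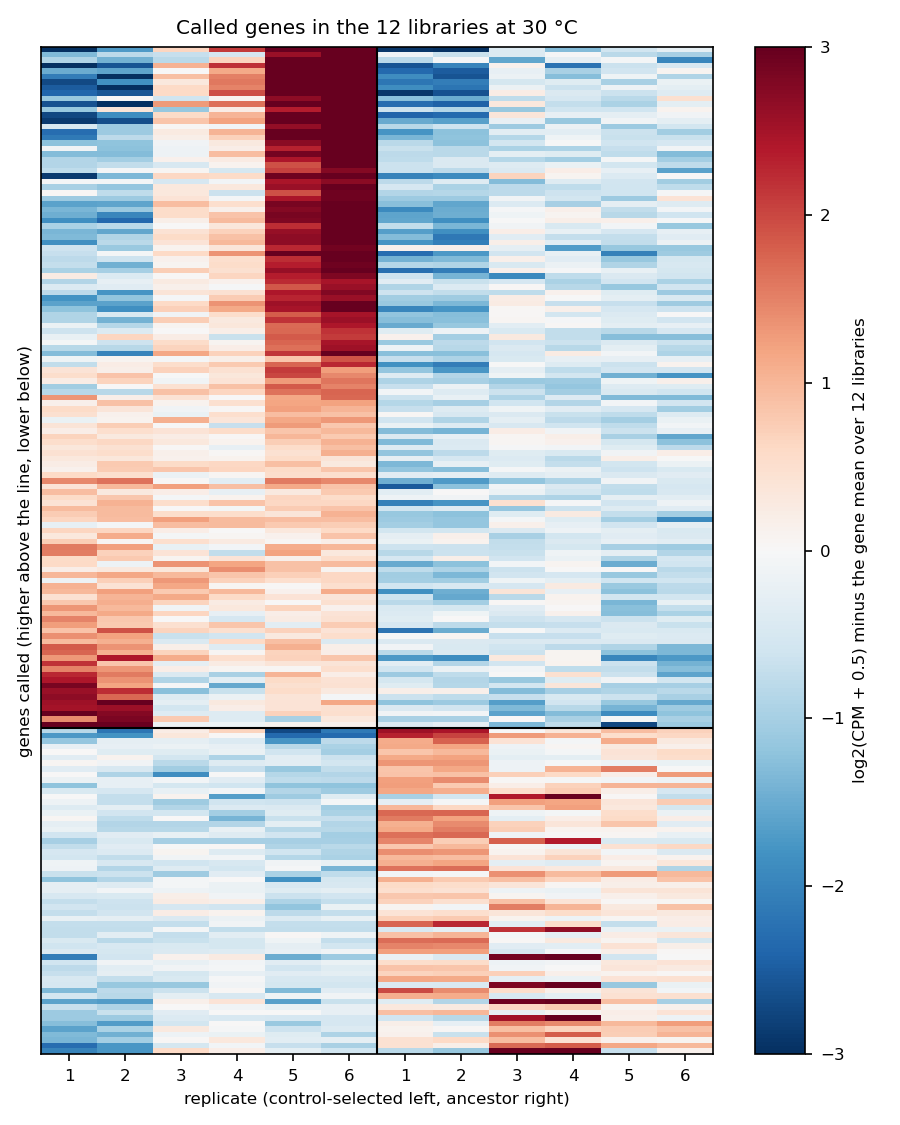
Levels of the 182 called genes (lines, higher above the black line, lower below it) in the 6 control-selected libraries (left) and 6 ancestor libraries (right), as log2(CPM + 0.5) minus the gene's mean over the 12 libraries. The dark block at the top marks genes high in control-selected replicates 5 and 6, such as CRE16931; a smaller group at the foot of the higher genes is highest in replicates 1 and 2.

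Called genes were spread over the genome with a few shared places. The gene models place 103 of the 182 on numbered linkage groups. Linkage group 9 held 8 called genes of 145 tested (5.52%), all 8 higher, while linkage group 1 held 37 of 2067 (1.79%) and linkage group 4 held 21 of 1571 (1.34%). On linkage group 9, 5 of the 8 lie in 1 assembly segment with 19 genes tested, among them CRE17828, CRE17924 and CRE17922. CRE17922 had 5.13 to 14.7 CPM in control-selected larvae (median 8.09) and 2.04 to 5.64 CPM in ancestor larvae (median 3.81), so that the groups overlapped. Its log2 fold change was 1.23 ± 0.32 (edgeR adjusted p = 0.0402), and 4 of the 6 fits without a pair lost the call. The rule on runs of neighbours named it together with CRE17828.

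A segment of linkage group 1 held 4 called genes of 13 tested, all higher, including the neighbours CRE07273 and CRE07274. CRE07273 had 37.2 and 61.2 CPM in control-selected replicates 5 and 6 and 2.31 to 7.26 CPM in the other 4, against 2.74 to 3.90 CPM in ancestor larvae. CRE07274 had 12.5 and 22.8 CPM in replicates 5 and 6 and 0.693 to 2.33 CPM in the other 4, against 0.677 to 1.81 CPM in ancestor larvae. In replicates 1 and 2 both genes lay within or below the ancestor range. Their log2 fold changes were 2.58 ± 0.50 and 2.71 ± 0.59 (edgeR adjusted p = 0.00415 and 0.00853), and 0.56 and 0.50 without that pair (adjusted p = 0.713 and 0.865). CRE07271 and CRE07281, named after their values were seen, completed the 4, with log2 fold changes of 3.08 ± 0.58 and 2.15 ± 0.58 (adjusted p = 0.00297 and 0.0475).

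The neighbours CRE12240 and CRE12262 on scaffold 300 differed less and were highest in control-selected replicate 1. CRE12240 had 6.22 to 21.1 CPM in control-selected larvae (median 9.67) and 2.05 to 6.32 CPM in ancestor larvae (median 3.40), and the groups touched at 6.22 and 6.32 CPM. Its log2 fold change was 1.60 ± 0.35 (edgeR adjusted p = 0.00814). CRE12262 had 5.13 to 30.2 CPM in control-selected larvae (median 8.37) and 2.05 to 6.77 CPM in ancestor larvae (median 3.97), a log2 fold change of 1.51 ± 0.37 (edgeR adjusted p = 0.0259). Both lost the call without control-selected replicates 1 and 2 (log2 fold change 1.17 for CRE12240 and 0.85 for CRE12262). In all, 38 called genes shared an assembly segment with another called gene. Along the order of tested genes matched to a RefSeq locus tag, 8 formed 4 runs of 2 neighbours. Other gene models may lie between them, and how many such genes chance would give was not tested.

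Larvae kept at 20 °C, also with unheated parents, gave fewer calls between the populations when all replicates entered. In this contrast, which uses none of the 12 libraries, 30 genes were called (0.223% of genes tested; 13 higher in control-selected, 0.0966%, and 17 lower, 0.126%). The 20 °C libraries carry the same batch letters, C and D for control-selected and A and B for ancestor larvae. Batch and population thus cannot be told apart there either. Of the 182 genes, 8 were called at 20 °C and all 8 had the same sign as at 30 °C: 3 of the 123 higher and 5 of the 59 lower genes. The sign matched for 57 of the 59 lower genes and for 71 of the 123 higher genes, beside 63.2% of all genes tested. The median log2 difference at 20 °C was −0.49 over the lower and 0.08 over the higher genes, beside −0.03 over all genes tested. At this temperature, too, no gene was called once consecutive replicates were summed in pairs, with 351 at an unadjusted p under 0.05.

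CRE21731, CRE_PX356_2402, CRE19314 and CRE_PX356_5841 differed at both larval temperatures. At 20 °C CRE21731 had 28.3 to 37.3 CPM in control-selected larvae (median 31.8) and 4.26 to 17.4 CPM in ancestor larvae (median 10.6), a log2 fold change of 1.64 ± 0.35 (edgeR adjusted p = 0.0202). CRE19314 had 0.476 to 2.18 CPM in control-selected larvae (median 1.52) and 2.73 to 9.59 CPM in ancestor larvae (median 5.36), with −1.84 ± 0.34 on the log2 scale (adjusted p = 0.0033). Neither gene overlapped between the populations at 20 or 30 °C. CRE_PX356_5841 had 0 to 1.37 CPM in control-selected larvae at 20 °C and 2.96 to 11.3 CPM in ancestor larvae, with −3.48 ± 0.52 on the log2 scale (edgeR adjusted p = 9.96e-05). CRE_PX356_2402, on scaffold 3601, changed least of the 4. At 30 °C it had 3.62 to 6.24 CPM in control-selected and 1.58 to 3.91 CPM in ancestor larvae (log2 fold change 0.91 ± 0.24, edgeR adjusted p = 0.0412), and at 20 °C the log2 fold change was 1.07 ± 0.24 (adjusted p = 0.0335).

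CRE16931 and CRE29510, high in control-selected replicates 5 and 6 at 30 °C, did not pass the test at 20 °C. CRE16931 had 1.16 to 6.28 CPM (median 3.55) in control-selected larvae at 20 °C and 1.53 to 5.64 CPM (median 2.85) in ancestor larvae, a log2 difference of 0.08 ± 0.88 (edgeR adjusted p = 0.984). CRE29510 was at 0 to 6.18 CPM in control-selected and 1.17 to 6.87 CPM in ancestor larvae at 20 °C (log2 difference −0.49 ± 0.98, adjusted p = 0.9). CRE15344 did not pass there either, with 96.9 to 117 CPM in control-selected and 67.1 to 135 CPM in ancestor larvae (log2 difference −0.02 ± 0.24, adjusted p = 0.989). A p that misses the threshold does not show equal levels.

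The response to 30 °C itself was compared between the populations as the difference at 30 °C minus the difference at 20 °C, in a fit with batch terms that uses the same 12 libraries. Ancestor replicates 5 and 6 are labelled batch A at 30 °C and batch B at 20 °C, which enters these terms. The fit called 117 genes (0.869%; 58 positive, 0.431%, and 59 negative, 0.438%). For CRE17828 the log2 value was 1.05 ± 0.24 (edgeR adjusted p = 0.0192). Its level at 20 °C was 28.2 to 45.6 CPM in control-selected larvae (median 31) and 15.6 to 36.9 CPM in ancestor larvae (median 25.2), so the populations overlapped at 20 °C and not at 30 °C. For CRE16931, CRE29510, CRE26392, CRE26693 and CRE17369 the log2 values lay between 3.96 and 5.43 (adjusted p between 0.00125 and 0.0204). For CRE04701 it was −2.45 ± 0.47 (adjusted p = 0.0082). Genes that differed at both temperatures, such as CRE21731 (−0.37 ± 0.36, adjusted p = 0.62) and CRE19314 (−0.17 ± 0.49, adjusted p = 0.888), did not pass this test. With the ancestor batches set by replicate number 48 genes were called, and without batch terms 1.

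**Figure D5:**
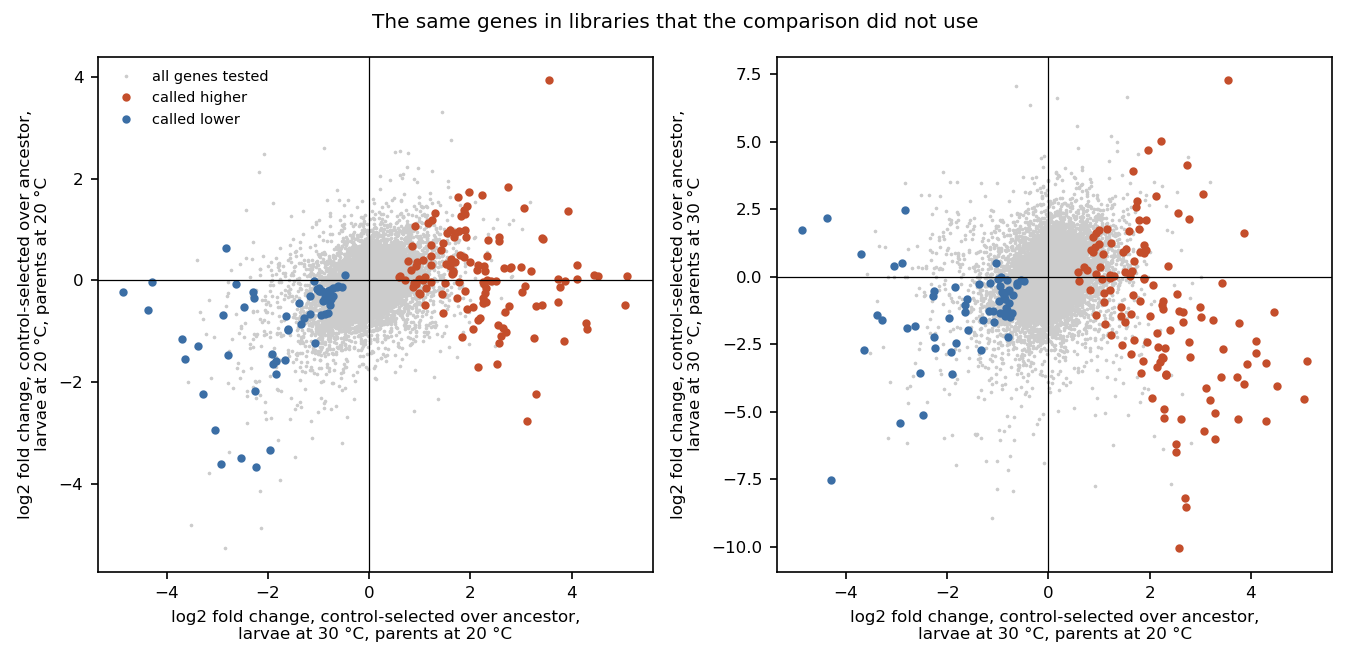
Log2 fold change of control-selected over ancestor at 30 °C with unheated parents (horizontal axes) against the same difference in larvae at 20 °C (left) and in larvae at 30 °C with parents at 30 °C (right); each point is a gene, with the 123 higher and 59 lower genes coloured. Most lower genes lie below 0 in both panels (57 and 51 of 59), whereas higher genes scatter around 0 on the left and reach −10.06 for CRE07273 on the right, a fitted value from libraries with no count.

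Offspring of parents kept at 30 °C gave another view of the same contrast at 30 °C, with 2 control-selected libraries (batch C) and 2 ancestor libraries (batch A) that are not among the 12. In them 956 genes were called (7.1%; 345 higher, 2.56%, and 611 lower, 4.54%), or 634 higher and 352 lower when libraries were scaled to total counts. Of the 59 lower genes, 51 had the same sign with heated parents, 18 of them were called, and none was called with the opposite sign. Of the 123 higher genes, 44 had the same sign and 17 of these were called (13.8% of the 123). Another 25 were called with the opposite sign (20.3%), that is, lower in control-selected larvae. Over all genes tested with a positive fold change, 4.50% were called with the same sign and 3.16% with the opposite sign. For all genes with a negative fold change these shares were 5.64% and 1.02%. For 17 of the 25 higher genes called with the opposite sign, the difference between batches C and A with unheated parents already ran against the call. For 8 it ran with it. Of all genes tested with a positive fold change, 189 were called with the opposite sign. Among these the batch difference ran against the fold change for 101 and with it for 88. Signs matched for 61.0% of all genes tested. The median log2 difference with heated parents was −1.04 over the lower and −1.13 over the higher genes, beside −0.01 over all genes tested.

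Genes that kept their direction with heated parents included CRE02474, CRE14226, CRE13568 and CRE21731. The libraries of heated parents are all of batches C and A. With unheated parents, too, the differences of these genes were larger between batches C and A than between D and B. CRE02474 had 152 and 157 CPM in control-selected offspring of heated parents, against 3.32 and 5.77 CPM in ancestor offspring, a log2 fold change of 5.04 ± 0.89 (edgeR adjusted p = 0.000261). CRE21731 had 30.3 and 35.6 CPM in control-selected and 5.53 and 3.91 CPM in ancestor offspring, a log2 fold change of 2.82 ± 0.63 (adjusted p = 0.00336). Both differed in the same direction in all 3 settings, although CRE02474 did not pass at 20 °C (log2 fold change 1.68 ± 0.44, adjusted p = 0.0817). CRE13568 had 7.88 and 11.1 CPM in control-selected and 3.32 and 1.30 CPM in ancestor offspring of heated parents (log2 fold change 2.11 ± 0.58, edgeR adjusted p = 0.0176). CRE14226 had 112 and 79.6 CPM in control-selected and 10.8 and 11.7 CPM in ancestor offspring (log2 fold change 3.08 ± 0.88, adjusted p = 0.0241). Its high control-selected libraries at 30 °C, replicates 1 and 2 with unheated parents and both with heated parents, are all in batch C. Among the lower genes, CRE_PX356_5841 had 0.197 and 0.297 CPM in control-selected and 3.76 and 2.79 CPM in ancestor offspring (log2 fold change −3.56 ± 0.97, edgeR adjusted p = 0.0176).

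Other higher genes turned round with heated parents. CRE17924 had 5.12 and 5.20 CPM in control-selected offspring of heated parents, against 66.6 and 23.1 CPM in ancestor offspring, a log2 fold change of −3.11 ± 0.55 (edgeR adjusted p = 0.00025). CRE17922, also there, had 6.11 and 3.86 CPM in control-selected and 32.3 and 12.7 CPM in ancestor offspring (log2 fold change −2.16 ± 0.55, adjusted p = 0.00948). CRE17828 had 20.9 and 18.4 CPM in control-selected and 39.6 and 33.6 CPM in ancestor offspring, and its difference did not pass (log2 fold change −0.90 ± 0.38, adjusted p = 0.141). CRE17924 and CRE17922 thus passed the test in opposite directions with unheated and heated parents.

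CRE07273 and CRE07274 had no count in either control-selected library of heated parents. Their levels were 27.4 and 24.7 CPM, and 9.07 and 9.13 CPM, in ancestor offspring, so that over the group CRE07273 was at least 100.4-fold and CRE07274 at least 35.9-fold lower in control-selected larvae, against a limit of 3 counts over both libraries (edgeR adjusted p = 6.57e-05 and 0.00108). CRE00199, on linkage group 1, had 0 and 0.149 CPM in control-selected and 9.52 and 9.87 CPM in ancestor offspring of heated parents (edgeR adjusted p = 0.00126). With unheated parents the same gene had 12.7 and 15.4 CPM in control-selected replicates 5 and 6 and 1.21 to 1.87 CPM in the other 4, against 0.493 to 1.37 CPM in ancestor larvae (log2 fold change 2.52 ± 0.57, edgeR adjusted p = 0.0119). All 3 genes were high in control-selected replicates 5 and 6 of unheated parents and in both ancestor libraries of heated parents.

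The change of the difference with parental temperature was tested directly, as the difference with unheated parents minus that with heated parents. This comparison was added after the data were seen and uses the same 12 libraries; it called 446 genes (3.31%), 340 positive and 106 negative. The split was 218 positive and 186 negative with scaling to total counts, and 418 positive and 444 negative with libraries of batches A and C alone. The log2 value was 2.70 ± 0.45 for CRE17828 (edgeR adjusted p = 0.000169) and 4.98 ± 0.64 for CRE17924 (adjusted p = 6.41e-06). For CRE13568 (−0.18 ± 0.66) and CRE19314 (−1.47 ± 0.66) it did not pass (adjusted p = 0.936 and 0.267). All libraries of heated parents are in batches A and C. With libraries of these batches alone, the values were 3.08 for CRE17828 and 5.28 for CRE17924 (adjusted p = 4.02e-07 and 2.88e-07). For CRE16931 the value was 8.23 ± 1.84 with all batches (adjusted p = 0.00543) and 2.13 within batches A and C (adjusted p = 0.433), and CRE29510 likewise gave 9.58 ± 2.16 (adjusted p = 0.00577) and 2.31 (adjusted p = 0.565). For CRE07273, whose control-selected libraries of heated parents had no count, the test passed with all batches (adjusted p = 6.41e-06) and within batches A and C (0.000158).

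In heat-selected larvae at 30 °C with unheated parents, which share the ancestor but none of these 12 libraries, CRE17828 ranged from 18.2 to 40.0 CPM (median 24.6). CRE21731 ranged from 0.313 to 3.62 CPM there (median 1.52) and CRE16931 from 0.313 to 11.7 CPM (median 2.53).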

How the data were processed

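RNA-seq libraries of pooled first-stage larvae were compared as counts. The authors deposited 1 file of whole-number read counts per gene model for each library, and per the submitters' processing notes the reads were aligned with GSNAP (version 2013-03-31) and counted with HTSeq (version not given in the sources used here). The genome build and the handling of strand are likewise not given in the sources used here, so reads of overlapping or antisense models cannot be separated. Each file holds 24723 gene models and 5 categories of reads outside them, which were left out of library sizes and made up the remainder of each library. Groups follow the titles and labels.

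Genes passing the filterByExpr filter of edgeR 4.0.16 (R 4.3.3; minimum count 10) were tested by a quasi-likelihood fit with TMM scaling over all 48 libraries in 12 groups, which share 1 estimate of the spread, without a batch term for differences between populations. Batch terms entered only the difference in response to larval temperature. P-values were adjusted over the 13460 genes tested and called under 0.05. The fitting code was tested on simulated counts without replicate pairs or batches, which checks the code and not the calls. CPM stands for counts per 1e6 of the TMM-scaled library size, and heat map values are log2(CPM + 0.5). Single library measures were compared by exact permutation of all 924 splits. Replicate pairs were averaged on a log2 scale with a prior count of 2. Replicates differed from each other by more than counting noise, so none was a mere resequencing of another. This check cannot tell separate cultures from several libraries of 1 culture. All replicates entered the main fit as separate values.

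Genes are named by rule among called genes whose log2 CPM averages 1 or more: the 8 higher and 8 lower with the largest fold among those without overlap, the 4 and 4 largest of the rest, up to 6 also called at 20 °C, up to 6 also called in the difference in response, genes called with pairs summed (none), and runs of called neighbours. The rule gave 34 genes, of which 31 are printed, since identifiers without a record in the RefSeq table are limited to 2 per direction. RefSeq locus tags could be matched to 15243 models, among them 10457 of those tested, and the table holds no names. Neighbours are next to each other in the RefSeq order of these tested genes, with all other models skipped. Planned lists of genes by function were therefore not used here. The members, lists and tests were chosen with earlier results of these data known.

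Alternatives covered DESeq2 1.42.0, limma-voom (limma 3.58.1), other scalings and filters, the libraries alone, replicate and batch blocks, summed replicates, single batches and omission of replicates. Depth sets the precision: counting error and floors (3 counts for a count of 0) cover counting only.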

Additional observations from a re-analysis of the deposited data

Results flagged for a closer look

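Among 76 groups of 6 values examined for a value far from the rest, 1 stood out, and chance gives about 1 in 20. It was CRE21731 in control-selected replicate 2 at 30 °C, with 31.4 CPM, against 10.8 to 14.9 CPM in the other 5 control-selected libraries. Without this replicate the log2 fold change was 1.43 (edgeR adjusted p = 0.0369).

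For 11 named genes the difference between control-selected and ancestor larvae was itself different at 30 and 20 °C (edgeR adjusted p under 0.05). Over all genes tested it was so for 117 of 13460 (0.869%). Up to 6 genes were named because this test called them. All named genes were chosen for their difference at 30 °C, which enters the value, so the count of 11 tests nothing. The log2 values, 30 °C minus 20 °C, were 1.05 for CRE17828, 3.34 for CRE27097, 3.57 for CRE07273 and 3.60 for CRE07274. They were 3.96 for CRE26392, 4.21 for CRE00199, 4.37 for CRE16931 and 4.65 for CRE17369. They were 5.18 for CRE26693 and 5.43 for CRE29510, and CRE04701 had the single negative value, −2.45. Except for CRE17828 and CRE04701, these genes were highest in control-selected replicates 5 and 6 at 30 °C, and CRE04701 was highest in ancestor replicates 3 and 4. The part of these libraries in the values was not tested.

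For 12 named genes the difference at 30 °C was also different between offspring of unheated and heated parents. Over all genes tested it was so for 446 of 13460 (3.31%). The named genes were chosen for their difference with unheated parents, which enters this value. Positive values were thus favoured in advance for higher genes, and the count of 12 tests nothing. The log2 values, unheated minus heated, were 2.70 for CRE17828, 3.39 for CRE17922, 4.98 for CRE17924 and 5.19 for CRE27097. They were 7.46 for CRE17369, 8.23 for CRE16931, 8.57 for CRE26392 and 9.01 for CRE00199. They were 9.58 for CRE29510 and 9.63 for CRE26693. The values of CRE07274 (11.25) and CRE07273 (12.63) depend on the fit, since both control-selected libraries of heated parents had no count of these genes. All libraries of heated parents are in batches A and C. With libraries of these batches alone, the difference did not pass for CRE17369 (1.86, adjusted p = 0.52), CRE16931 (2.13, 0.433), CRE26392 (2.37, 0.436), CRE29510 (2.31, 0.565) and CRE26693 (3.01, 0.464). It passed for CRE17828, CRE17922, CRE17924, CRE27097, CRE00199, CRE07274 and CRE07273, with 3.30 for CRE27097 (edgeR adjusted p = 0.0405).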

How the results depend on the processing

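The number of genes called at 30 °C (182) stayed within 1.5 times with scaling to total counts (147; 116 higher and 31 lower, beside 123 and 59), DESeq2's size factors (182), no filter (151) and a minimum count of 50 (127; 103 higher and 24 lower), and without control-selected replicates 1 and 2 (175; 141 higher and 34 lower) or ancestor replicates 1 and 2 (188; 87 higher and 101 lower). The genes were not all the same: 114 of the 182 were called with total counts, 174 with DESeq2's size factors, 146 without a filter, 114 at a minimum of 50, 104 without control-selected replicates 1 and 2, and 80 without ancestor replicates 1 and 2. Other settings moved it further: 286 with DESeq2, 64 with limma-voom, 51 when tested against a 1.5-fold change, 1 with the 12 libraries alone, 1 with batch as a random block, and 0 with replicates summed in pairs (706 at an unadjusted p under 0.05) or per batch (464). Without a pair of replicates it was 513 (control-selected 3-4), 24 (control-selected 5-6), 549 (ancestor 3-4) and 349 (ancestor 5-6). Leaving out single libraries gave 55 (without control-selected replicate 6) to 230 genes (without control-selected replicate 4), with 81 without control-selected replicate 5 and 121 without ancestor replicate 1. With batches weighted equally it was 600 (215 higher, 385 lower), 1533 where the replicate number also set the ancestor batches, 1149 between batches C and A, and 382 between D and B. The cause was not tested, except that pairs and batches summed leave fewer values per group.

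Same-numbered replicates deviated from their group means together with r between 0.07 and 0.64. Number 5 stayed under 0.1 and not every replicate correlated best with its own number, so single numbers are not taken as pairs. The deviations did run together by consecutive pair for replicates 1-2 and 3-4, but not clearly for 5-6. Between the populations, r was 0.41 to 0.64 for replicates 1-2, 0.30 to 0.51 for 3-4 and 0.05 to 0.38 for 5-6. Between control-selected replicates 3-4 and ancestor replicates 5-6 it was 0.12 to 0.35, much as for 5-6 with 5-6. Between control-selected replicates 1-2 and ancestor replicates 3-4 it was −0.57 to −0.28, and centring on group means favours negative values between unlike pairs. With the replicate block 39 genes were called, 25 of them among the 182.

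At 20 °C the 30 called genes became 19 at a minimum count of 50, 86 with DESeq2 and 0 with pairs summed. With heated parents, leaving out 1 library gave 251 to 698 genes (956 with all), where the lone library of a group is assumed to vary like the others. The difference in response (117 genes) became 294 with DESeq2, 48 with ancestor batches by replicate number, 1 without batch terms and 0 with pairs summed (255 unadjusted); scaling to total counts gave 142 (90 positive, 52 negative) and moved the median of all genes to 0.33. The difference between parental temperatures (446) became 862 within batches A and C (418 positive, 444 negative), 404 with total counts (218 positive, 186 negative) and 0 with pairs summed (765 unadjusted).

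Over the named genes and all settings, 710 values kept direction and call, 327 kept the direction only and 8 turned round. Between batches C and A these were −0.96 for CRE16931, −1.29 for CRE17369, −2.21 for CRE29510, −1.66 for CRE26392, −2.31 for CRE26693, −0.43 for CRE07273 and −0.62 for CRE07274, and CRE04701 was 0.24 without ancestor replicates 3 and 4. Reads outside gene models differed by 4.77 percentage points of all reads, control-selected minus ancestor, and by 6.28 of reads aligned once (exact permutation p = 0.0519). Libraries of 2476342 to 8466404 counts limit what can be seen in genes of a few CPM.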
